A study of Mus musculus with 8 samples.

Results

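The 5 genes described here are the cardiac GATA transcription factors *Gata4*, *Gata5* and *Gata6* and their FOG cofactors *Zfpm1* (also called *Fog1*) and *Zfpm2* (*Fog2*). They were chosen by name, not by measured value, from the 49315 genes counted in the RNA-seq tables, though with earlier results of these data known. All 5 were matched to an Ensembl identifier and passed the filter on low counts. The RNA came from entire mouse hearts at embryonic day 9.5, with 4 wild-type and 4 homozygous Tbx20EH1Mut libraries and 3 pooled hearts in each. Tbx20EH1Mut is a germline allele made by injecting Cas9 into embryos from C57BL/6J oocytes, fertilized with sperm of a male carrying a tagged *Tbx20* allele. Per the paper, it arose in a *Tbx20* copy without the tag. It replaces a pair of adjacent amino acids in the engrailed homology (EH1) motif through which the T-box factor *Tbx20* binds TLE corepressors. The allele is present in every cell of the embryo, the mutant line was bred from founder males and back-crossed, and both sexes were used, so that each library is a pool of embryos of unstated sex.

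GATA factors bind the DNA letters GATA through a pair of zinc fingers. In the embryonic heart, GATA4, GATA5 and GATA6 act in overlapping ways in myocardium, endocardium and the neighbouring mesoderm and endoderm, and GATA4 binds other cardiac regulators, among them NKX2-5, TBX5, HAND2 and TBX20. FOG proteins carry many zinc fingers but do not bind DNA themselves. They attach to the N-terminal finger of a GATA factor and bring in, among other complexes, the NuRD chromatin remodelling and deacetylase complex, and they can either reduce or raise the activity of the factor at a given gene.

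*Gata4* (ENSMUSG00000021944) lies at chr14:63198922-63271692 on the minus strand of GRCm38, and its annotated exons cover 3904 bases. *Gata5* (ENSMUSG00000015627, chr2:180325133-180334699, minus strand) covers 3277 exon bases. *Zfpm1* (ENSMUSG00000049577, chr8:122282141-122337251, plus strand) covers 3503 exon bases and *Zfpm2* (ENSMUSG00000022306, chr15:40655042-41104592, plus strand) 4974. The 5 genes therefore sit on different chromosomes and share no exons with each other. An antisense gene, *Gata5os*, shares 258 bases (7.87%) of the exons of *Gata5*, and *1010001N08Rik* shares 58 bases (1.82%) of those of *Gata6*. Over the 8 libraries these antisense genes held 987 and 4436 counts, against 32668 for *Gata5* and 43116 for *Gata6*. The strand setting of the counting is not given in the sources used here, so reads of the shared bases could not be assigned to a strand.

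Because the genes form families, the counts depend on reads being assigned to the right copy. The coding stretches most alike between *Gata4* and *Gata5* and between *Zfpm1* and *Zfpm2* are printed 5′ to 3′ on the coding strand, from GENCODE M21 transcripts, to show how far the copies differ where they are closest and where the proteins meet. The GATA stretch is in exon 3 of *Gata4* (chr14:63204625-63204714) and exon 2 of *Gata5* (chr2:180332332-180332421) and encodes part of the N-terminal zinc finger, the one that FOG proteins bind. Capitals mark the bases that differ between the pair.
Gata4: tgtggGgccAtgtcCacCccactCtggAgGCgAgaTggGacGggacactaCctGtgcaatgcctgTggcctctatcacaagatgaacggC
Gata5: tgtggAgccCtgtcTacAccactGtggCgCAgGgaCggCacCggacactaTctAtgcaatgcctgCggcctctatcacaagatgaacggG
The FOG stretch is in exon 7 of both *Zfpm1* (chr8:122334458-122334547) and *Zfpm2* (chr15:41099293-41099382) and encodes most of a zinc finger of the CCHC type, the type with which FOG proteins contact GATA factors. Capitals again mark the differing bases.
Zfpm1: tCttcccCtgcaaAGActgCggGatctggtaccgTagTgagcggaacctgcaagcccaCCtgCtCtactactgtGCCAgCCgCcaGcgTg
Zfpm2: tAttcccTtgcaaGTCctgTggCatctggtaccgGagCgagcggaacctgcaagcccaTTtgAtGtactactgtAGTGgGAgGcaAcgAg
In the GATA stretch 74 of 90 bases (82.2%) were identical, and in the FOG stretch 68 of 90 (75.6%). The longest run of identical bases anywhere in the transcripts was 26 bases between *Gata4* and *Gata5*, 18 between *Gata4* and *Gata6*, 15 between *Gata5* and *Gata6* and 20 between *Zfpm1* and *Zfpm2*. Between these GATA genes and *Gata1*, *Gata2* or *Gata3* it was 14 to 24 bases. All of these runs are shorter than a single read of the study.

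Total counts were 33359322 to 49523086 per wild-type library and 36250675 to 38357025 per Tbx20EH1Mut library. Of the 17163 genes that passed the filter on low counts, 29.3% had an adjusted p of at most 0.05 between the genotypes (quasi-likelihood fit of edgeR, Benjamini-Hochberg adjustment over all tested genes) and are said to be called, 15.3% lower and 14.0% higher in Tbx20EH1Mut hearts. Lower genes made up 52.1% of the calls, 41.1% when libraries were scaled by their upper quartile, 56.7% with library size alone and 60.3% with an offset on GC content. The first principal component (50.5% of the variance) set the genotypes apart, with wild-type replicate 1 closest to the Tbx20EH1Mut libraries. *Tbx20* itself was at 353.2 to 379.6 CPM (counts per 1000000 of the TMM-scaled size of the library) in wild-type and 215 to 316.7 CPM in Tbx20EH1Mut libraries, and a count of reads per gene does not tell the alleles apart. The 10 cardiomyocyte markers summed to 25100 to 28730 CPM in wild-type and 23380 to 34820 CPM in Tbx20EH1Mut libraries, with 2 of the 10 lower and none higher by the same test.

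Of the 5 genes, *Gata4* and *Zfpm2* were lower in Tbx20EH1Mut hearts and *Gata5*, *Gata6* and *Zfpm1* did not pass the test. The count of 2 of 5 stands beside the 29.3% of all tested genes that were called, both calls beside the 15.3% that were lower, and the absence of a higher one beside the 14.0% that were higher. A called change of 0.5 or more on the log2 scale, in either direction, was seen in 24.6% of all tested genes and in none of the 5. Only *Zfpm2* had every library of one genotype on one side of every library of the other, which was so for 30.5% of all tested genes. The median log2 change of the 5 genes was -0.44, against 0.00 over all genes tested. Fewer cells of a type and less RNA per cell cannot be told apart in bulk RNA of whole hearts.

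**Figure D1:**
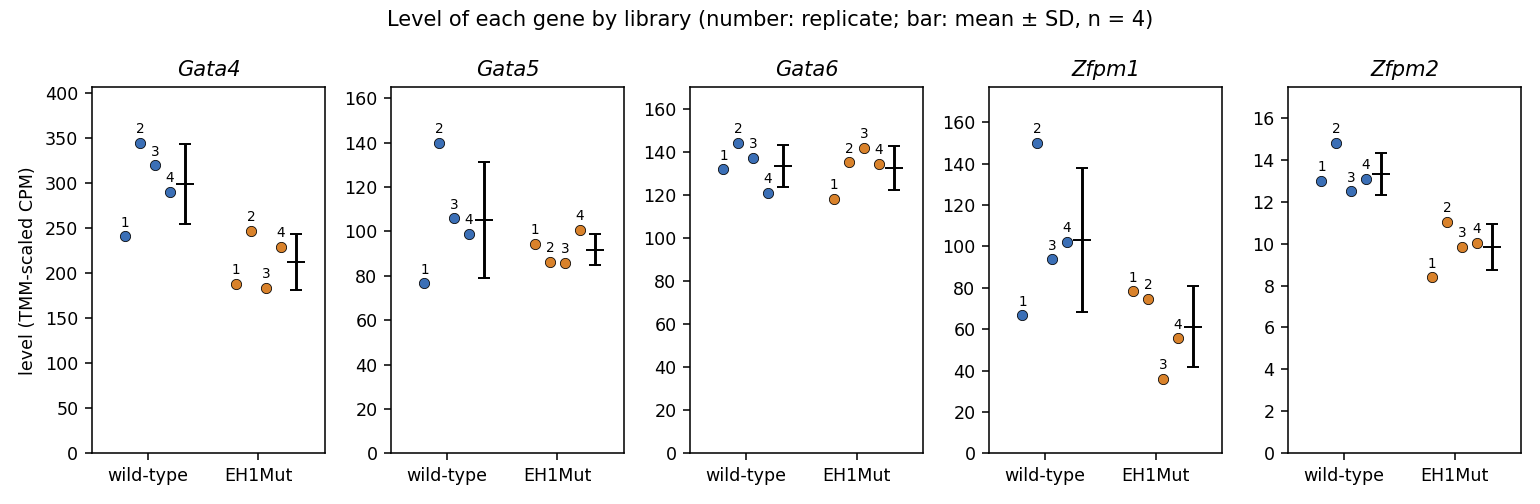
Level of each gene in each library, in TMM-scaled CPM on axes that start at 0, with the 4 wild-type libraries in blue and the 4 Tbx20EH1Mut (EH1Mut) libraries in orange, numbered by replicate, and the mean ± SD in black. The genotypes are apart in *Zfpm2*, overlap by 1 library of each genotype in *Gata4* and overlap broadly in *Gata5* and *Gata6*, while in *Zfpm1* the libraries of each genotype are widely spread.

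*Gata4*, the GATA factor without which the heart tube does not form properly, had the highest level per exon length of the 3 GATA genes and was lower in Tbx20EH1Mut hearts. The wild-type libraries 1 to 4 held 240.7, 344.2, 319.6 and 289.7 CPM, and the Tbx20EH1Mut libraries 1 to 4 held 188.0, 247.0, 183.6 and 229.4 CPM. All wild-type libraries but replicate 1 lay above all Tbx20EH1Mut libraries, and Tbx20EH1Mut replicate 2 lay just above that replicate. The mean went from 298.5 ± 44.5 to 212.0 ± 31.2 CPM (SD, n = 4 libraries each), a log2 change (the log2 of the mutant over the wild-type level) of -0.49, with a standard error (SE) of 0.148 (95% interval -0.82 to -0.16, adjusted p = 0.0319 by edgeR). The exact two-sided permutation test on the 8 levels gave p = 0.0571, where 4 libraries against 4 cannot go below 0.0286. The call was close to the threshold, since the adjusted p was 0.0559 with upper-quartile scaling and between 0.0619 and 0.0867 in 6 of the 8 fits on 7 libraries, those without wild-type replicate 2, 3 or 4 or Tbx20EH1Mut replicate 1, 3 or 4. Without wild-type replicate 1, the library nearest to the mutants, the log2 change was -0.59 (adjusted p = 0.0105).

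*Gata5*, a GATA factor with a known role in endocardial cells and valve formation, measured 76.6, 139.8, 105.9 and 98.8 CPM in the wild-type libraries 1 to 4. In Tbx20EH1Mut replicates 1 to 4 it was at 94.3, 86.4, 85.7 and 100.6 CPM. The lowest and the highest of the 8 values were both wild-type, and all Tbx20EH1Mut values lay between them. The means were 105.3 ± 26.2 and 91.8 ± 7.07 CPM, with a log2 change of -0.20 (SE 0.166, 95% interval -0.57 to 0.17, adjusted p = 0.387 by edgeR). The value rested largely on wild-type replicate 2, without which it was -0.02, and it was -0.33 (adjusted p = 0.0910) without wild-type replicate 1.

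*Gata6*, which overlaps with *Gata4* in heart muscle and is also known from the outflow tract and endoderm, was at nearly the same level in both genotypes. The gene (ENSMUSG00000005836, chr18:11052510-11085635, plus strand) covers 3194 exon bases. Wild-type libraries 1 to 4 were at 131.9, 144.1, 137.2 and 120.9 CPM, and Tbx20EH1Mut libraries 1 to 4 at 118.1, 135.2, 142.0 and 134.4 CPM. The ranges covered each other almost completely. The means were 133.5 ± 9.76 and 132.5 ± 10.1 CPM, and the log2 change was -0.01 (SE 0.105, adjusted p = 0.943 by edgeR). Its 95% interval, -0.24 to 0.22, was the narrowest of the 5, and its sign turned under the GC content offset (0.0015), without Tbx20EH1Mut replicate 1 (0.05) and without wild-type replicate 2 (0.04). Upper-quartile scaling gave 0.07, which is -0.01 relative to the median of all genes under that scaling (0.09). Only 1.53% of the tested genes had a smaller absolute log2 change.

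*Zfpm1*, the FOG gene best known as the partner of GATA1 in red cells and platelets and also needed in the heart for valves and septa, was the most variable of the 5. Its values were 66.7, 150, 93.8 and 102.1 CPM over the wild-type libraries 1 to 4 and 78.4, 74.7, 36.0 and 55.6 CPM over the Tbx20EH1Mut libraries 1 to 4. Wild-type replicate 1 lay below Tbx20EH1Mut replicates 1 and 2, and the other wild-type libraries lay above all 4 mutant libraries. The mean was 103.1 ± 34.7 CPM in wild-type and 61.2 ± 19.5 CPM in Tbx20EH1Mut hearts, and the coefficients of variation of 33.7% and 32.0% were larger than those of the other 4 genes in the same genotype. The log2 change was -0.75 (SE 0.279, 95% interval -1.38 to -0.13) and did not pass the test (adjusted p = 0.0658 by edgeR, exact permutation p = 0.0857). It passed with DESeq2 (adjusted p = 0.0275), with no filter on low counts (0.0440) and without wild-type replicate 1 (log2 change -0.92, adjusted p = 0.0225), and was -0.50 (0.179) without wild-type replicate 2.

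*Zfpm2*, the FOG gene known as the cofactor of GATA4 in the forming myocardium and coronary vessels, had the lowest level per exon length and was the only gene of the 5 whose genotypes did not overlap. Wild-type libraries 1 to 4 gave 13.0, 14.8, 12.5 and 13.1 CPM, and Tbx20EH1Mut libraries 1 to 4 gave 8.39, 11.1, 9.85 and 10.04 CPM. Every mutant library lay below every wild-type library. The mean fell from 13.3 ± 1.0 to 9.83 ± 1.10 CPM, a log2 change of -0.44 (SE 0.136, 95% interval -0.74 to -0.14, adjusted p = 0.0352 by edgeR). The exact permutation test gave p = 0.0286, the smallest that this design allows. The raw counts behind it were 428 to 726 per wild-type library and 315 to 416 per Tbx20EH1Mut library. The adjusted p was 0.0712 without the filter on low counts, 0.0673 with upper-quartile scaling, and 0.0585 to 0.0863 in the 6 fits that left out wild-type replicate 2, 3 or 4 or Tbx20EH1Mut replicate 1, 3 or 4.

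**Figure D2:**
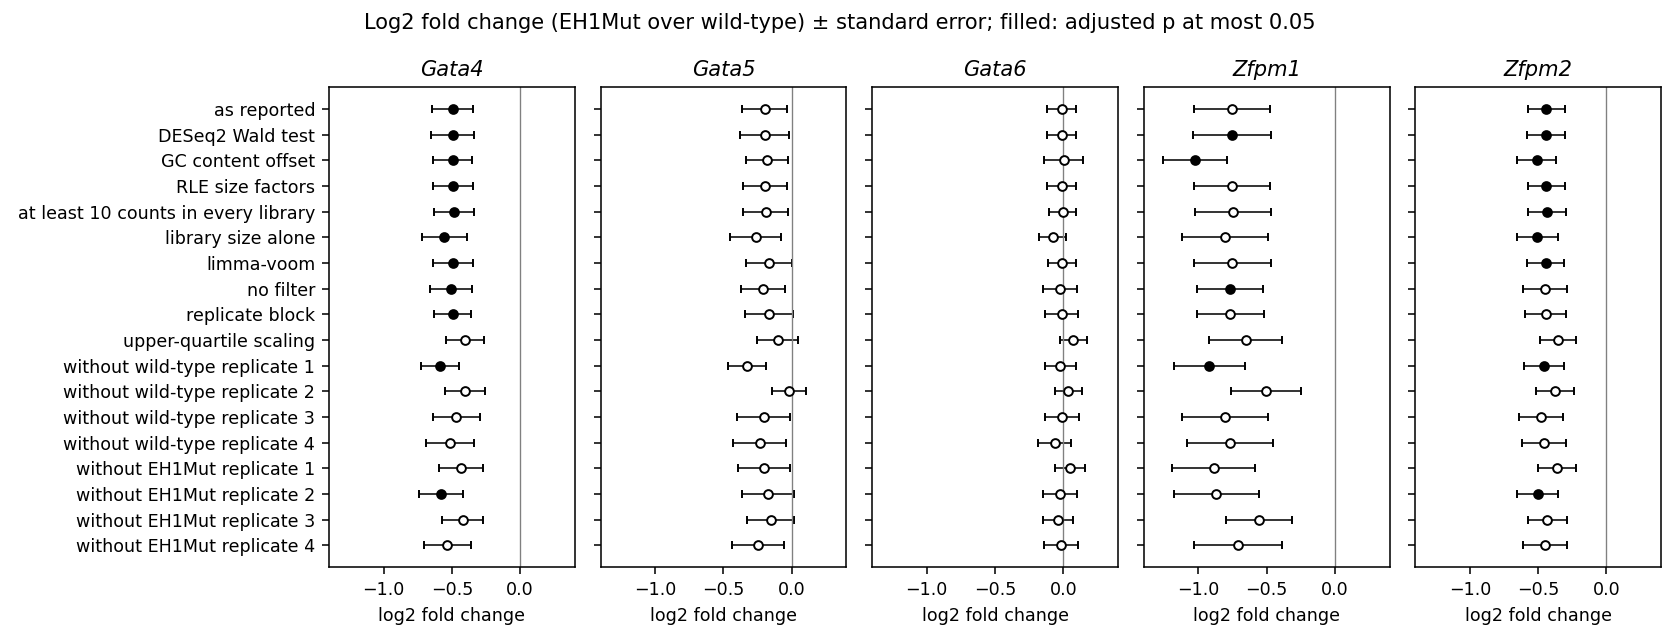
Log2 change (Tbx20EH1Mut over wild-type, horizontal axis) with its standard error for each gene, as reported and under each other setting or left-out library (rows), with filled points at an adjusted p of at most 0.05. *Gata4*, *Zfpm1* and *Zfpm2* stay below 0 in every row while their points change between filled and open, and *Gata6* stays within 0.08 of 0.

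Divided by exon length (RPKM, the CPM per kilobase of exon), levels can be set side by side between genes. In wild-type hearts *Gata4* was at 76.5 ± 11.4 RPKM, *Gata6* at 41.8 ± 3.05, *Gata5* at 32.1 ± 7.98, *Zfpm1* at 29.5 ± 9.91 and *Zfpm2* at 2.68 ± 0.201. The ranges of *Gata6* and *Gata5* overlapped in wild-type libraries, as did those of *Gata5* and *Zfpm1*, while *Gata4* lay above and *Zfpm2* below all the others. In Tbx20EH1Mut hearts the order was the same, with 54.3 ± 7.98, 41.5 ± 3.18, 28.01 ± 2.16, 17.5 ± 5.58 and 1.98 ± 0.220 RPKM, and no ranges of neighbouring genes overlapped. Over all 8 libraries, the RPKM of *Gata4* exceeded that of 94.7% of the tested genes, that of *Gata6* 92.0%, that of *Gata5* 88.9%, that of *Zfpm1* 86.0% and that of *Zfpm2* 42.1%.

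Of the summed RPKM of the 3 GATA genes, *Gata4* made up 48.8% to 52.2% in wild-type libraries and 40.0% to 47.9% in Tbx20EH1Mut libraries, without overlap. The mean share of *Gata6* was 28.1% ± 3.16 in wild-type and 33.6% ± 2.82 in Tbx20EH1Mut hearts, and that of *Gata5* 21.1% ± 2.37 and 22.7% ± 2.21, both with overlapping ranges. The summed level itself was 150.4 ± 21.2 RPKM in wild-type and 123.8 ± 9.36 RPKM in Tbx20EH1Mut hearts, also with overlap. These shares describe the make-up of the family, and tests were made on ratios between single genes. *Zfpm1* made up 91.2% ± 2.33 of the summed FOG level in wild-type and 89.0% ± 3.88 in Tbx20EH1Mut hearts.

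**Figure D3:**
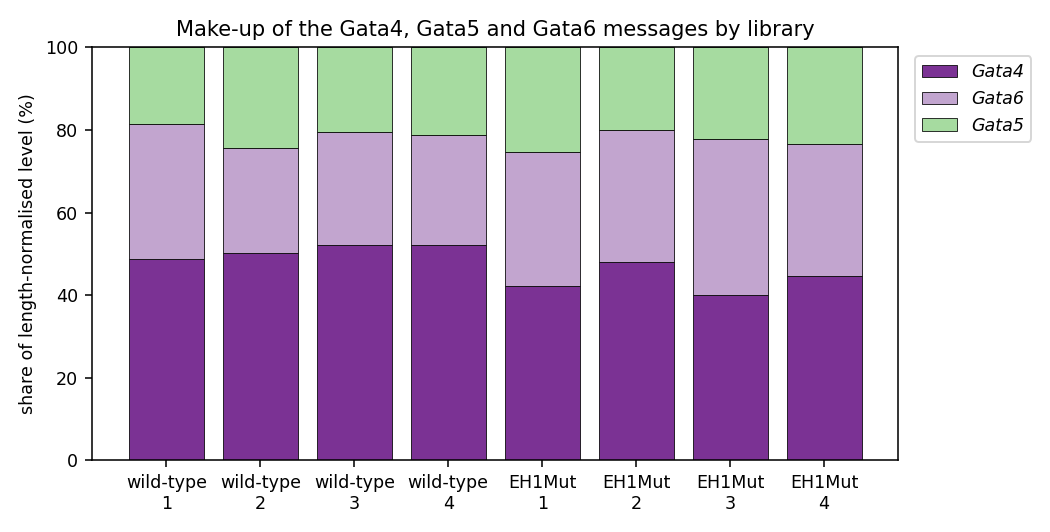
Share of *Gata4*, *Gata6* and *Gata5* in their summed length-normalised level (percent, vertical axis) in each of the 8 libraries. The *Gata4* part is at least 48.8% in every wild-type library and at most 47.9% in every Tbx20EH1Mut (EH1Mut) library.

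Whether the genes changed by different amounts was asked with the ratio of their length-normalised counts within each library, which needs no scaling between libraries. The log2 ratio of *Gata4* to *Gata6* was 0.58, 0.97, 0.93 and 0.97 in wild-type replicates 1 to 4 and 0.38, 0.58, 0.08 and 0.48 in Tbx20EH1Mut replicates 1 to 4. The mean ratio was 1.82 in wild-type and 1.30 in Tbx20EH1Mut hearts, a log2 difference of -0.48, with only wild-type replicate 1 and Tbx20EH1Mut replicate 2 level with each other. The exact two-sided permutation test gave p = 0.0571, or 0.114 after Benjamini-Hochberg adjustment over the 4 ratios tested, which is not past the threshold. With 4 libraries against 4, a single ratio at the smallest possible p would also miss it after this adjustment. For *Gata4* to *Gata5* the log2 difference was -0.32 with the same exact permutation p of 0.0571 (adjusted 0.114). For *Zfpm2* to *Zfpm1* it was 0.31 (exact permutation p = 0.371, adjusted 0.495), and 0.08 to 0.53 with a library left out. The log2 ratio of *Zfpm2* to *Gata4* was -4.82 ± 0.20 in wild-type and -4.77 ± 0.14 in Tbx20EH1Mut hearts (difference 0.05, exact permutation p = 0.657, adjusted 0.657).

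The transcripts of the 5 genes differ in base composition, and the libraries differ in how GC-rich genes stand against GC-poor ones. The GC content was 66.8% in *Zfpm1*, higher than in 99.7% of the tested genes, 57.4% in *Gata4*, 56.9% in *Gata5*, 55.3% in *Gata6* and 44.0% in *Zfpm2*, against a median of 49.8%. In each library, the median log2 deviation of the most GC-rich decile of genes minus that of the most GC-poor decile was taken as its GC trend. It was -0.16, 0.20, 0.01 and 0.13 in wild-type replicates 1 to 4 and 0.14, 0.12, -0.37 and -0.09 in Tbx20EH1Mut replicates 1 to 4. The wild-type library lowest in *Zfpm1* (replicate 1) and the mutant library lowest in *Zfpm1* (replicate 3) had the lowest GC trends of their genotypes, and the library highest in *Zfpm1*, wild-type replicate 2, had the highest. Wild-type replicate 2 was highest in all 5 genes. The same libraries were lowest in *Gata4* and in *Gata5*, but not in *Gata6* or *Zfpm2*.

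An offset on GC content was added once the data had been seen, and with it the log2 change of *Zfpm1* was -1.02 and passed the test (adjusted p = 0.00909 by edgeR). That is a larger fall than the -0.75 without the offset. At 66.8% GC, *Zfpm1* lies near the upper end of the range over which the offset was fitted. Under the same offset *Gata4* was at -0.50 (adjusted p = 0.0238), *Zfpm2* at -0.51 (0.0209), *Gata5* at -0.18 (0.380) and *Gata6* at 0.00 (0.996). The median log2 change of all genes was -0.05 under the offset.

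**Figure D4:**
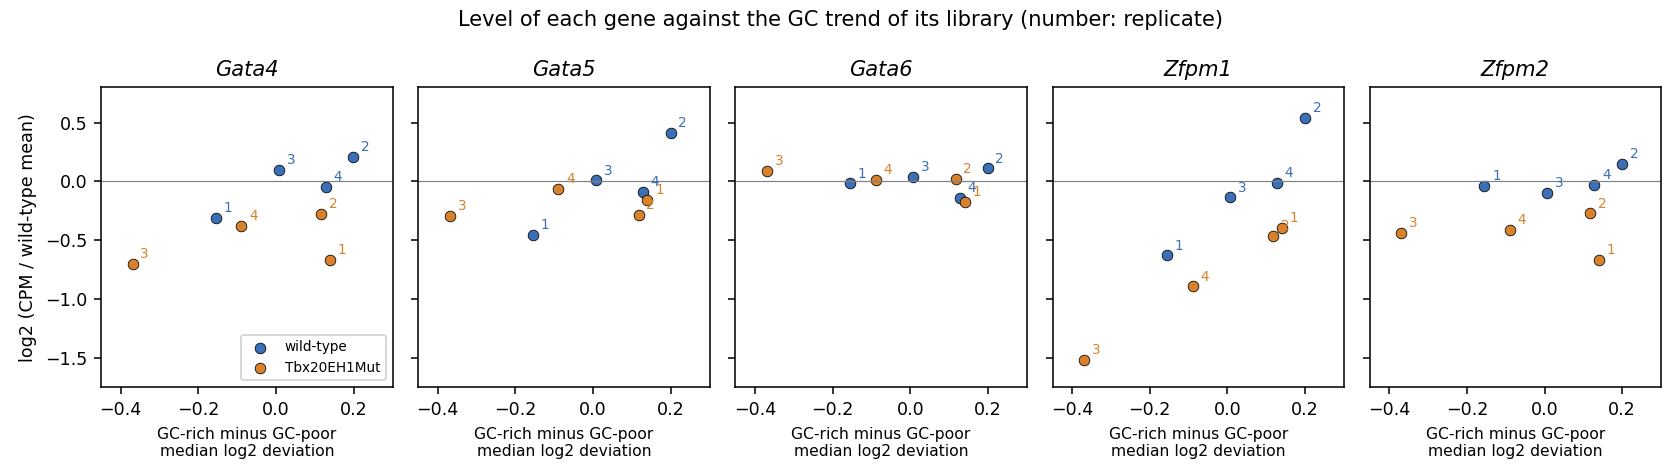
Level of each gene in each library, as log2 of CPM over the wild-type mean (vertical axis), against the GC trend of the library (horizontal axis, median log2 deviation of GC-rich minus GC-poor genes), with wild-type libraries in blue and Tbx20EH1Mut libraries in orange, numbered by replicate. In *Zfpm1* both genotypes climb from left to right with the mutants below, while *Gata6* lies flat.

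Levels of other cell types were compared through marker lists. Of the 9 primitive erythroid markers found in the tables, 8 were lower in Tbx20EH1Mut hearts and none higher (median log2 change -2.08), beside the 15.3% of all tested genes that were lower. Their summed level was 1771 to 4616 CPM in wild-type and 327.4 to 1037 CPM in Tbx20EH1Mut libraries. *Zfpm1* is also expressed in erythroid cells. Of the 5 megakaryocyte markers tested, 1 was lower. Of the 10 endocardial and endothelial markers, 4 were higher and none lower, beside 14.0% higher and 15.3% lower over all genes, with sums of 752.7 to 943 CPM in wild-type and 989 to 1077 CPM in Tbx20EH1Mut libraries.

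Of the 12 foregut and hepatic endoderm markers tested, a tissue that also makes *Gata4* and *Gata6*, 5 were higher and none lower (median log2 change 2.94), beside the 14.0% of all genes that were higher. The summed level of all 13 listed markers, 1 of them below the count filter, was 12.3 to 54.4 CPM in wild-type and 62.1 to 295.3 CPM in Tbx20EH1Mut libraries. Of the 9 proepicardial markers, *Wt1* was higher and *Aldh1a1* lower, with overlapping sums of 63.1 to 200.9 CPM and 127.6 to 175 CPM. Of the 4 neural markers tested, 1 was higher and 1 lower. Over all tested genes 29.3% were called, 14.0% higher and 15.3% lower. The part of these cell types in the levels of the 5 genes was not tested.

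The other genes with GATA-type zinc fingers moved in different directions. *Gata1*, the master regulator of red cells and one of the erythroid markers, fell from 3.49 ± 1.37 to 0.676 ± 0.548 CPM (log2 change -2.35, SE 0.568, adjusted p = 0.0133 by edgeR), with every mutant library below every wild-type library. Its counts were low, 72 to 235 per wild-type library and 7 to 52 per Tbx20EH1Mut library. *Gata3*, known from T cells, kidney and sympathetic neurons, rose from 10.97 ± 4.05 to 19.1 ± 5.05 CPM (log2 change 0.80, adjusted p = 0.0471). *Trps1*, a repressor with a GATA-type finger, rose from 8.51 ± 0.780 to 12.4 ± 1.82 CPM (log2 change 0.54, adjusted p = 0.0244). *Gata2*, known from blood progenitors and endothelium, was at 28.2 ± 3.06 and 23.9 ± 4.12 CPM (log2 change -0.24, adjusted p = 0.236). No rise in this list held in all fits with a library left out, since none was called without wild-type replicate 3 or 4 or Tbx20EH1Mut replicate 4, and only 1 was called without wild-type replicate 2 or Tbx20EH1Mut replicate 1 or 3.

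Of 18 cardiac partner factors of GATA4, 5 were higher and 4 lower, with a median log2 change of 0.03, and 10 did not overlap between genotypes. These are 9 of 18 called, beside 29.3% of all genes, and 10 of 18 without overlap, beside 30.5%. The largest rise was in *Isl1*, a LIM-homeodomain factor of cardiac progenitors, from 19.8 ± 6.67 to 120.0 ± 39.9 CPM. *Nfatc4*, a calcineurin-dependent factor that cooperates with GATA4, rose from 19.5 ± 2.55 to 58.3 ± 7.04 CPM (log2 change 1.58). *Smad1* and *Smad4*, which carry BMP signals, and *Klf13*, a zinc finger partner, rose by log2 changes of 0.49, 0.59 and 0.50. *Smarcd3*, the heart subunit of the BAF remodelling complex, fell from 126.4 ± 40.1 to 52.2 ± 4.70 CPM (log2 change -1.28), and *Tbx5* (-0.80), *Tbx20* (-0.46) and *Hand2* (-0.29) fell as well. *Smarcd3* shares 48.2% of its exon bases with *Chpf2* on the other strand, which held 6638 counts against 31035. *Hand2* was called in none of the 8 fits with a library left out. *Klf13* was not called without wild-type replicate 3 or 4 or Tbx20EH1Mut replicate 4 (adjusted p = 0.0516 to 0.0649), nor *Tbx20* without wild-type replicate 3 or 4 or Tbx20EH1Mut replicate 1 or 2 (0.0630 to 0.0726). The count of higher partner factors was 4 to 5 with a library left out. *Nkx2-5*, the homeodomain partner of GATA4, was at 488.7 ± 56.1 and 469.1 ± 87.8 CPM and did not pass the test (log2 change -0.06, adjusted p = 0.799). The count of lower genes was 2 with upper-quartile scaling, and also without wild-type replicate 3 or 4 or Tbx20EH1Mut replicate 1 or 2.

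Of 13 subunits of the NuRD complex, 2 were lower, none was higher and 2 did not overlap between genotypes, with a median log2 change of -0.15. Over all tested genes 29.3% were called, 15.3% lower, and 30.5% did not overlap. *Gatad2a*, a subunit that itself carries a GATA-type finger, fell from 134.1 ± 27.7 to 83.1 ± 6.94 CPM (log2 change -0.69, adjusted p = 0.00830). *Mta2*, a scaffold subunit, fell from 124.1 ± 14.1 to 95.1 ± 11.7 CPM (log2 change -0.38, adjusted p = 0.0448). The deacetylase genes *Hdac1* and *Hdac2* had log2 changes of -0.17 and 0.09 and did not pass the test. The histone-binding subunit genes *Rbbp4* (0.17) and *Rbbp7* (0.32) and the remodelling ATPase gene *Chd4* (-0.40) did not pass either. Without wild-type replicate 2 the log2 change of *Chd4* was -0.17. The count of lower subunits was 1 in 4 of the settings that kept all libraries, among them upper-quartile scaling, and in 6 of the 8 fits with a library left out (all but those without wild-type replicate 1 or Tbx20EH1Mut replicate 2).

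Of 22 genes described as cardiac targets of these GATA factors, 8 were lower and 2 higher, with a median log2 change of -0.16, and 9 did not overlap between genotypes. The share called, 10 of 22, stands beside 29.3% of all genes tested, and the 9 of 22 without overlap beside 30.5%. *Nppa*, the atrial natriuretic peptide of chamber myocardium, fell from 456.2 ± 113.0 to 143.1 ± 22.7 CPM (log2 change -1.67). Of the exon bases of *Nppa*, 61.5% are shared with the antisense gene *Gm13054*, which held 1820 counts over the 8 libraries, against 99797 for *Nppa*. *Wnt2*, a signal of the inflow region, fell from 70.4 ± 11.2 to 22.7 ± 4.98 CPM, and *Ccnd2*, a D-type cyclin, from 844.7 ± 121.6 to 293.2 ± 62.7 CPM. *Slc8a1*, the sodium-calcium exchanger, went from 183.4 ± 128.2 to 46.8 ± 18.5 CPM (log2 change -1.97), with wild-type libraries from 47.1 to 356.7 CPM and replicate 1 inside the mutant range. Its log2 change was -1.41 without wild-type replicate 2, and it was not called without Tbx20EH1Mut replicate 4 (adjusted p = 0.0574 by edgeR). *Myh6* (log2 change -1.26) and *Smyd1* (-0.72), of the sarcomere and its assembly, also fell, together with *Smarcd3* and *Hand2*, which are partner factors too.

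The targets that rose were *Bmp4*, a growth factor of the outflow tract and its progenitors, from 54.0 ± 4.28 to 110.2 ± 12.9 CPM (log2 change 1.03), and *Sema3c*, a guidance signal of the outflow tract, from 49.0 ± 5.97 to 95.7 ± 15.9 CPM (0.97). The remaining 12 did not pass the test. Among them were *Tnnt2* (0.03), *Nppb* (0.56), *Tnnc1* (0.40), *Tnni3* (-0.19) and *Actc1* (-0.37), which encode sarcomere proteins and a natriuretic peptide (adjusted p of 0.0768 to 0.913). Described targets of the same GATA factors therefore moved both ways.

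**Figure D5:**
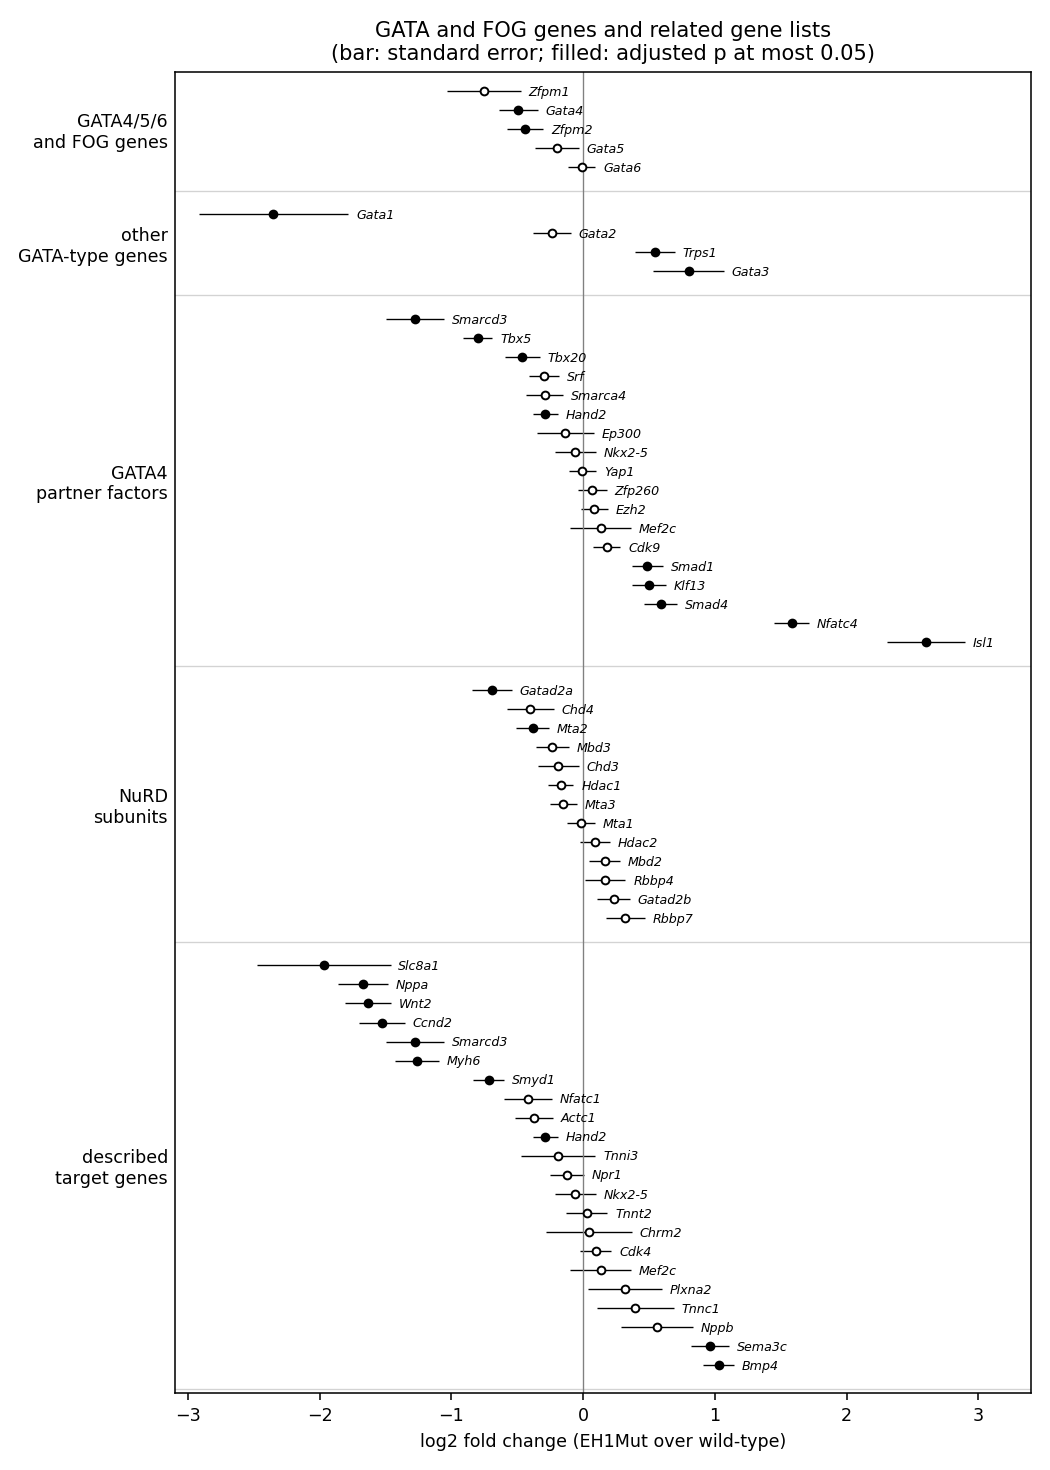
Log2 change (Tbx20EH1Mut over wild-type, horizontal axis) with its standard error for the 5 GATA and FOG genes and for the genes of the 4 related lists, 1 row per gene, with filled points at an adjusted p of at most 0.05. The 5 genes lie between -0.75 and -0.01, and the NuRD subunits between -0.69 and 0.32. The other GATA-type genes run from -2.35 to 0.80, the partner factors from -1.28 to 2.60 and the described targets from -1.97 to 1.03. The lists differ in their number of genes, so their spans are not compared.

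The genes whose pattern over the 8 libraries was most like that of each gene were found by the root mean square difference of centred log2 CPM, over the 10500 candidates averaging 5 CPM or more. For *Gata4* they were *Rabif* (0.0691), *Zfp26* (0.0723) and *B4galt5* (0.0731), for *Gata5* they included *Mpdz* (0.0662) and *Cdh5* (0.0669), and for *Gata6* *Erlin2* (0.0425), *St7l* (0.0450) and *Alg9* (0.0492). For *Zfpm1* they were *Dgkz* (0.0645), *Tsc2* (0.0845) and *Nrd1* (0.0888), and for *Zfpm2* *Plxnc1* (0.0452), *Rad23b* (0.0633) and *Zswim1* (0.0654). Within the 5 genes, the nearest pair was *Gata4* and *Zfpm2* at 0.148 and the farthest *Gata6* and *Zfpm1* at 0.592, where the median distance of all candidates was 0.362 from *Gata4*, 0.289 from *Gata6* and 0.585 from *Zfpm1*. The values of all genes come from the same 8 libraries and share their depth and composition, and the distances are given as a description, without a test.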

How the data were processed

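Poly-A selected RNA of whole hearts was measured by paired-end RNA-seq. The authors deposited raw counts, unnormalized whole numbers per Ensembl gene, in 1 table per library. Per the submitters' processing notes, Trimmomatic 0.36, STAR 2.5.2b and GRCm38 (mm10) were used. The counting tool, strand setting and annotation release are not given in the sources used here. Of 49315 genes, 48970 had a symbol in GENCODE M21, and 91.4% of these had the same start and end.

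Genotype and replicate number came from the sample labels. Counts were filtered with filterByExpr (17163 genes), scaled by TMM and fitted with genotype as the only term in edgeR 4.0.16 (glmQLFit, glmQLFTest, R 4.3.3), with Benjamini-Hochberg adjustment over all genes tested. Calls needed an adjusted p of 0.05 or less (common dispersion 0.0707). Genes near 1 CPM are the least precise. Ratios used counts plus 0.5 over exon length and exact two-sided permutation tests over 70 arrangements. The model fits were run on simulated counts with larger changes than those of the GATA and FOG genes. The ratio tests and the GC content offset were not run on them. All pairs of libraries of the same genotype differed by more than counting noise.

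The genes named in the text are the 5 genes, the called genes with the largest changes and the defining genes of each list, markers beside a result, and the 3 most similar genes each, of which 1 is not reported here. The members and lists were chosen with earlier results of these data known. Alternatives were limma-voom (limma 3.58.1), DESeq2 1.42.0, RLE or upper-quartile factors, unscaled library sizes, a replicate block, a filter of 10 counts or more in each library, no filter (any gene counted), 5 counts added to ratios, leaving out each library and, chosen after seeing the data, a loess offset on transcript GC content (span 0.3, 99.7% of tested genes with a value). Python 3.11.15 was used for joins and plots. *Ahsp* of the erythroid list was not matched.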

Additional observations from a re-analysis of the deposited data

Results flagged for a closer look

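Of 18 sets of 4 values examined (levels and ratios of the 5 genes by genotype), 2 held a value far from the other 3, where chance gives about 1 in 20. The log2 ratio of *Gata4* to *Gata6* in wild-type replicate 1 was 0.58, against 0.93 to 0.97 in the other wild-type libraries, a gap of 0.898 of the range, past Dixon's critical value. The log2 ratio of *Zfpm2* to *Gata4* in Tbx20EH1Mut replicate 3 was -4.57, against -4.86 to -4.83 in the other mutant libraries (gap 0.896 of the range). Without the first library the genotype difference in the *Gata4* to *Gata6* ratio was -0.58, with every remaining wild-type ratio above every mutant ratio. The exact permutation p was then 0.0286, the smallest for 3 libraries against 4, and 0.114 after adjustment over the 4 ratios. A single ratio at that p cannot pass after this adjustment. Without the second library the difference in the *Zfpm2* to *Gata4* ratio was -0.02 (exact permutation test, adjusted p = 0.886).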

How the results depend on the processing

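The direction of *Gata4*, *Zfpm1*, *Zfpm2* and *Gata5* was the same in all 9 alternatives with 8 libraries and in all 8 fits without a library, and *Gata5* and *Gata6* were called in none. *Gata4* lost its call with upper-quartile scaling (-0.40, or -0.49 relative to the median of all genes under that scaling). Leaving out 1 library gave -0.59 to -0.41 for *Gata4*. *Zfpm2* lost its call with no filter (-0.45), upper-quartile scaling (-0.35) and the replicate block (-0.44, adjusted p = 0.0680). Relative to the median of all genes, its value with upper-quartile scaling was -0.44. Leaving out 1 library gave -0.50 to -0.36 for *Zfpm2*. *Zfpm1* gained a call with DESeq2 (-0.75), no filter (-0.77) and the GC offset (-1.02), and leaving out 1 library gave -0.92 to -0.50. The cause of these changes was not tested. Leaving out 1 library gave -0.33 to -0.02 for *Gata5* and -0.06 to 0.05 for *Gata6*. Same-numbered libraries did not deviate together (correlations -0.27, 0.34, 0.06 and 0.06). No wild-type library correlated best with the Tbx20EH1Mut library of its own number. Of the Tbx20EH1Mut libraries, only replicate 2 correlated best with the wild-type library of its number, and the numbers were not taken as pairs. The replicate block left 3945 genes called, against 5024, and among the lists 1 higher other GATA-type gene, 1 lower NuRD subunit, 4 higher and 3 lower partner factors and 7 lower targets. It ended no other call of the 5 genes. Over all genes, 3001 (wild-type replicate 4 left out) to 6586 (wild-type replicate 1 left out) were called, and up to 6320 with DESeq2. Of the other GATA-type genes 1 was higher with library size alone, 0 lower with at least 10 counts in every library (*Gata1* was not tested), and 0 to 2 higher with a library left out. Of the partner factors 2 were lower with upper-quartile scaling and 2 to 4 with a library left out. Of the NuRD subunits 1 was lower with library size alone, no filter and upper-quartile scaling, 3 with the GC content offset, and 1 to 2 with a library left out. Of the targets, 7 to 9 were lower and 2 higher with all libraries, and 6 to 8 lower and 2 to 3 higher with a library left out. No ratio passed in any setting, but a single ratio at the smallest p of any of these permutations, the paired one included, would miss the threshold after adjustment, so this says nothing about stability. At 315 to 726 counts per library, *Zfpm2* had the least depth of the 5.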
